A study of Homo sapiens with 6 samples.

Results

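The 9 genes described here, ITGA2B, ITGB3, GP9, PF4, FLI1, RUNX1, ETS1, VWF and SELP, mark the megakaryocyte lineage, and they were followed in K562 cells after iron chelation. They were taken by gene name: every transcript that GENCODE release 44 assigns to one of the 9 names was used, 70 transcripts in all, and the estimated counts and TPM of a gene's transcripts were summed. They are 9 of the 62252 genes that the transcripts of these libraries fall into. RNA was taken from K562, an established human leukemia line of erythroid character, after overnight culture with 10 µM 21H7, a cell-permeable iron chelator (the Chelator group), or with DMSO, its solvent, at a matched volume (the DMSO group). Each group held 3 biological replicates of the same line, both groups were grown in RPMI 1640 with serum, and polyadenylated RNA was sequenced as read pairs. One cell line, 1 dose and 1 duration were studied, so the libraries say nothing of primary megakaryocytes.

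Megakaryocytes are the large marrow cells that shed platelets, and they share a bipotent progenitor with red cells. Their surface carries the fibrinogen receptor, an integrin made of an alpha chain (ITGA2B) and a beta chain (ITGB3), and the von Willebrand factor receptor complex, of which GP9 is a small subunit. Their granules store the chemokine PF4, the adhesive protein VWF and the membrane lectin SELP (P-selectin). The transcription factors RUNX1, FLI1 and ETS1 bind regulatory regions of such genes together with GATA factors. K562 cells are long known to express some genes of both the erythroid and the megakaryocytic programs.

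Depth was 90.4, 84.2 and 78.6 M estimated counts with DMSO (M, 1e+06 counts) and 96.4, 101 and 85.4 M with 21H7. K562 is an erythroid line, and all 16 genes of a list of erythroid and K562 markers were read in these libraries, with the fetal and embryonic globins HBG2, HBG1 and HBE1 among the highest. Within groups, DMSO replicate 2 stood apart (chi-square per gene of 63.6 and 44.4 against the other DMSO libraries, which differed from each other by 8.53), and so did Chelator replicate 1 (30.0 and 28.1, against 6.54 between the other Chelator libraries). The fold changes and the usage calls of the 9 genes were therefore also computed without these libraries. The gap between a transcript's length and the effective length salmon used, which follows the fragment length, measured 257, 264 and 252 bases with DMSO and was shorter with 21H7, at 218, 207 and 200 bases, and its part in the results was not tested.

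Of the 9 genes, 4 were read in every library, 1 (VWF) had 49 counts over all libraries and 4 were at or near 0. RUNX1 was the most abundant. The genes fall into 3 roles, which are taken in turn: receptors, granule proteins and transcription factors.

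**Figure D1:**
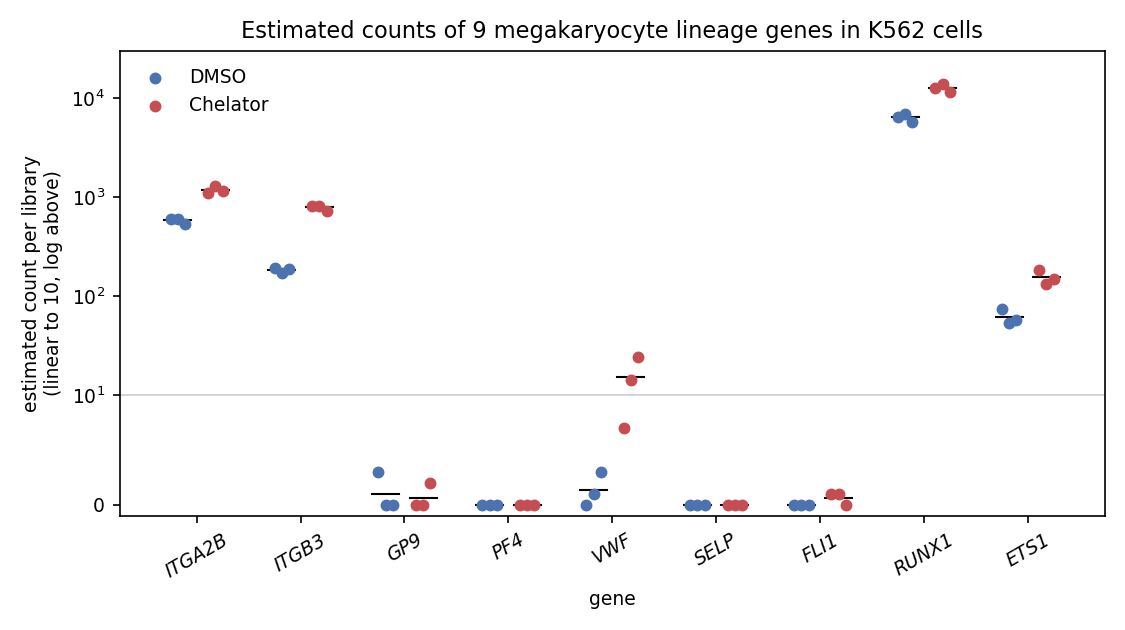
Estimated counts of the 9 genes, 1 point per library (y axis linear up to 10 and logarithmic above, black bars for group means, 3 libraries per group, not scaled for depth). RUNX1, ITGA2B, ITGB3 and ETS1 were higher in every Chelator library than in any DMSO library, while PF4 and SELP were at 0 in all 6 libraries.

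To ask whether gene expression differed, DESeq2's Wald test was fitted across all genes with a total count above 10, corrected by an offset for the mean length of the transcripts read from the gene. Calls needed an adjusted p (Benjamini-Hochberg) under 0.05 and a log2 fold change past 1 in either direction. Of 25553 genes with an adjusted p, 2624 (10.3%) were called, 7.81% as higher and 2.46% as lower in Chelator. The 9 genes gave 5 that passed the filter on counts and 4 that did not, and 2 of the 9, ITGB3 and RUNX1, were called, both higher in Chelator. VWF passed the filter only through its Chelator libraries. With no requirement on fold size, 35.9% of all genes passed the adjusted p (18.5% higher and 17.4% lower in Chelator), as did 3 of the 9, ITGB3, RUNX1 and ITGA2B, all higher.

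ITGB3 (GRCh38, chr17:47253827-47313743, plus strand) encodes the beta chain of the fibrinogen receptor, which also pairs with the alpha V chain in the vitronectin receptor. It was given 190, 171 and 186 estimated counts under DMSO, and 812, 818 and 729 under 21H7. The groups did not overlap, and every Chelator library was close to the others. Normalized counts, which are divided by library size and transcript length, rose from 193 ± 20.1 to 746 ± 55.5 (SD, n = 3 each), a 3.87-fold increase (log2 fold change 1.95, SE 0.15, DESeq2 adjusted p = 1.92e-35). The log2 fold change was 1.88 without DMSO replicate 2 and 1.91 without Chelator replicate 1. On the per-length scale the gene remained a low one, moving from 0.455 ± 0.0259 to 1.80 ± 0.0831 TPM. A readthrough transcript unit (ENSG00000259753) leads the genes that share 39.1% of ITGB3's 31-base words, and it was assigned 0 counts in every library. The full-length coding transcript ITGB3-201 carried 98.6% of the gene's TPM in DMSO and 90.8% in Chelator.

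Its partner ITGA2B (chr17:44372180-44389649, minus strand), the alpha chain that gives the receptor its megakaryocyte restriction, had estimated counts of 603, 603 and 533 in DMSO and 1095, 1286 and 1145 in Chelator. Every Chelator library was above every DMSO library. Normalized counts rose from 661 ± 38.2 to 1034 ± 127 (SD, n = 3), which is 1.56-fold (log2 fold change 0.65, SE 0.13, DESeq2 adjusted p = 4.51e-06), so the gene passed the adjusted p but not the fold size. Leaving out the libraries that stood apart gave 0.59 (DMSO replicate 2) and 0.75 (Chelator replicate 1). With all changes centred on their mean it was 0.43 (adjusted p = 0.00784). Its full-length transcript, ITGA2B-201, carried 49.4% of the gene's TPM in DMSO and 53.8% in Chelator, and retained-intron transcripts held most of the rest.

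Because the receptor holds 1 of each chain, the ratio of their RNA was taken within each library, where library size cancels. ITGA2B TPM over ITGB3 TPM was 8.25, 8.43 and 7.58 in DMSO and 2.63, 3.74 and 3.49 in Chelator. The ratio was lower in every Chelator library, with a mean of 3.28 ± 0.583 against 8.09 ± 0.448 (SD, n = 3). An exact two-sided permutation test gave p = 0.1, which is the smallest value that 3 libraries against 3 allow. Much of the ITGA2B TPM is retained-intron RNA, which codes for no chain. With the full-length transcripts ITGA2B-201 and ITGB3-201 alone, a choice made after seeing the data, the ratio was 4.05 ± 0.45 in DMSO and 1.91 ± 0.139 in Chelator (SD, n = 3, exact permutation p = 0.1), again without overlap. ITGA2B RNA was thus in excess over ITGB3 RNA in all 6 libraries, and less so in the Chelator libraries.

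GP9 (chr3:129060779-129062406, plus strand), a subunit of the von Willebrand factor receptor, was at the edge of detection. It had 3, 0 and 0 estimated counts in DMSO and 0, 0 and 2 in Chelator, and was not tested. A count of 0 in 1 of these libraries allows up to 3 counts, which is between 0.0297 and 0.0382 CPM (counts per 1e+06 counts). GP9 has no 31-base word in common with another annotated gene, so sharing of reads with other genes does not bear on its count.

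The granule proteins among the 9 genes were silent or nearly so. PF4 (chr4:73980811-73982027, minus strand), a chemokine made almost only by megakaryocytes, and SELP (chr1:169588849-169630193, minus strand), the granule membrane lectin that platelets expose on activation, had 0 estimated counts in all 6 libraries. Both can only be said to lie under 3 counts per library. Of PF4's 31-base words, 49.7% are shared with other annotated genes, among them PF4V1, which was also at 0 throughout, and an overlapping unit (ENSG00000288796) that had 3 counts over the Chelator libraries.

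VWF (chr12:5948877-6124770, minus strand), the large adhesive protein of megakaryocytes and endothelium, had 0, 1 and 3 estimated counts in DMSO and 7, 14 and 24 in Chelator. All Chelator libraries were above all DMSO libraries in counts, yet the test did not call the gene (log2 fold change 1.91, SE 1.41, DESeq2 adjusted p = 0.318). The length offset varied widely for this gene. The single read of DMSO replicate 2 was assigned to VWF-205, a fragment of 688 bases, and the average effective length behind the offset was 436 bases there against 9220 bases in DMSO replicate 3, so that 1 read became 12 normalized counts. In the other libraries the reads were assigned to VWF-201, the full-length coding transcript. With protein-coding transcripts alone the log2 fold change was 3.71 (SE 1.46, DESeq2 adjusted p = 0.0224), and without the length offset it was 3.25 (SE 1.18, adjusted p = 0.0163), both past the call. Since the gene was tested only because of its Chelator counts, its direction was set by the filter, and these values are given as a description. Without DMSO replicate 2 it was 2.82 (adjusted p = 0.109), and without Chelator replicate 1 it was 2.19 (adjusted p = 0.352). A filter of at least 10 counts in 3 libraries removed the gene. Of its words, 12.2% occur in other genes, such as its pseudogene VWFP1. In TPM, VWF stayed under 0.035 in every library.

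RUNX1, a DNA-binding factor that works with CBFB and is needed for megakaryocyte maturation, was the most abundant of the 9. Its estimated counts were 6493, 6837 and 5774 in DMSO and 12555, 13851 and 11522 in Chelator. The groups lay well apart. Normalized counts rose from 6112 ± 319 to 13115 ± 97.2 (SD, n = 3), a 2.15-fold increase (log2 fold change 1.10, SE 0.07, DESeq2 adjusted p = 1.05e-54). In TPM the gene went from 24.4 ± 3 to 53.3 ± 1.95, and by mean TPM it moved from rank 4846 to rank 2519 of 19991 protein-coding genes. The value was 1.11 without DMSO replicate 2 and also 1.11 without Chelator replicate 1.

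RUNX1 was higher in Chelator under every alternative run, but its place above the fold threshold depended on them. The log2 fold change was 0.76 without the length offset, with protein-coding transcripts alone 0.84 and with the changes centred on their mean 0.89, with adjusted p of 1.66e-32, 1.04e-37 and 4.43e-23, all under the fold threshold of 1. Tested against a log2 fold of 1 instead of 0, the gene had an adjusted p of 1. The offset mattered because the average effective length of the RUNX1 transcripts read fell from 3396, 3684 and 3825 bases (DMSO) to 2937, 2823 and 2865 bases (Chelator). Shorter transcripts give fewer reads per molecule, so the same reads stand for more molecules in Chelator.

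**Figure D2:**
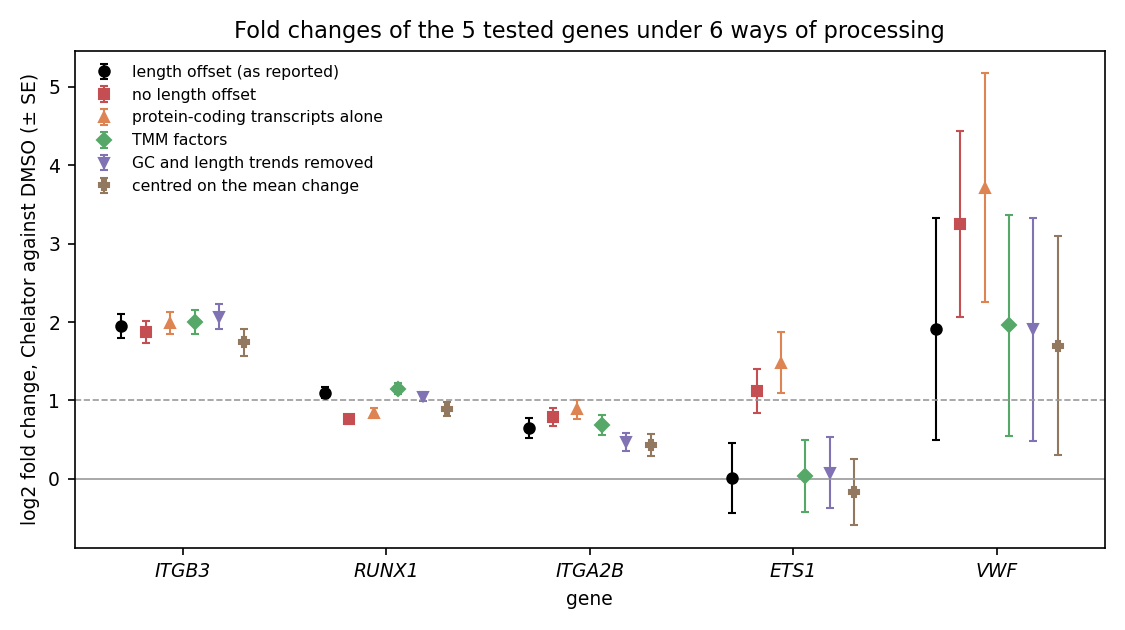
Log2 fold change of Chelator against DMSO (± SE) for the 5 tested genes under 6 ways of processing the same counts, with the dashed line at the fold threshold of 1. ITGB3 stayed above the line throughout, RUNX1 fell on either side of it, ITGA2B stayed under it, and ETS1 and VWF moved most, between -0.17 and 1.48 and between 1.70 and 3.71.

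To see which RUNX1 transcripts carried the rise, usage within genes was tested by diffSpliceDGE of edgeR, and calls needed an adjusted Simes p under 0.05 and at least 1 transcript whose mean share of TPM within the gene changed by over 5 percentage points. Of 11938 genes tested, 1105 (9.26%) were called. Of the 9 genes 3 could be tested, and RUNX1 was called (edgeR adjusted p = 0.00451, largest change of a share 21.0 points), while ITGA2B (adjusted p = 1) and ITGB3 (adjusted p = 0.743) were not. The call of RUNX1 was lost without DMSO replicate 2 (adjusted p = 0.0866), without Chelator replicate 2 (0.0838) and without Chelator replicate 3 (0.108), and it was kept without Chelator replicate 1 (0.0186) and with limma's diffSplice on all 6 libraries (adjusted p = 0.00227). The shares themselves moved little when a library was left out, with a largest change of 19.5 to 22.9 points.

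RUNX1 lies on the minus strand of chromosome 21 (GRCh38, chr21:34787801-36004667). Most of its transcripts begin in a distal region or at a proximal start within the gene, and 3 begin elsewhere. Among the coding forms, RUNX1-202 and RUNX1-203 end either in the last exon of the full-length protein or in an earlier last exon that gives a short protein with the DNA-binding domain and no activation domain. RUNX1-202, from the proximal start, codes for 453 codons. RUNX1-203 has the same first 4 exons and then ends in another last exon (chr21:34821279-34821696) that it shares only with the non-coding RUNX1-215 and in which 26 of its bases are coding, for 250 codons in all. RUNX1-216 is annotated as a target of nonsense-mediated decay, the pathway that removes mRNAs with an early stop. It begins at the distal start and joins its exon 2 to its exon 3 across 2 exons of RUNX1-201 (39 and 254 bases), and these 293 bases are not a multiple of 3, so that the frame is broken. The junctions that set these forms apart are given from the GENCODE transcripts, 5′ to 3′, with 30 bases of the exon before the junction in lower case and 26 bases of the exon after it in capitals, all of them coding.
RUNX1-202 exon 4 to exon 5: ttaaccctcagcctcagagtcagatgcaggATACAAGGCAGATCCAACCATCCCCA
RUNX1-203 exon 4 to exon 5: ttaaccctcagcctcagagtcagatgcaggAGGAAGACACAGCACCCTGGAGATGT
RUNX1-201 exon 1 to exon 2: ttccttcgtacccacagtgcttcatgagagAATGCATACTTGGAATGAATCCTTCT
RUNX1-216 exon 2 to exon 3: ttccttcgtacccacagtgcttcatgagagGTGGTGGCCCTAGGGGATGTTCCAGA
The first pair starts from chr21:34834410-34834439 and goes on at chr21:34799437-34799462 (full length) or at chr21:34821671-34821696 (short form). The second pair starts from chr21:35048842-35048871 and goes on at chr21:34892938-34892963 or, in RUNX1-216, at chr21:34880688-34880713.

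The short form showed the largest difference in TPM. RUNX1-203 was estimated at 4.30, 4.26 and 4.09 TPM in DMSO and at 18.4, 19.2 and 20.2 TPM in Chelator, and its share of the gene went from 17.4% ± 1.81 to 36.2% ± 1.55 (SD, n = 3). The full-length RUNX1-202 was estimated at 8.58, 11.3 and 9.41 TPM in DMSO and at 10.1, 10.4 and 9.97 TPM in Chelator, so the groups overlapped, and its share went from 40.0% ± 3.54 to 19.0% ± 0.563. The short form was thus below the full-length form in every DMSO library and above it in every Chelator library. Tested one by one against the rest of the gene, RUNX1-203 did not pass (edgeR adjusted p = 0.0575), and neither did RUNX1-202 (adjusted p = 0.503).

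RUNX1-216, the form with the broken frame, was estimated at 1.58, 0.447 and 0 TPM in DMSO and at 10.1, 10.4 and 11 TPM in Chelator. It was the 1 RUNX1 transcript that passed on its own (edgeR adjusted p = 0.00255), and its share went from 2.76% ± 3.47 to 19.7% ± 0.970 (SD, n = 3). No library of one group came near the other group. RUNX1-204, a shorter coding form from the proximal start, held 3.89 to 6.11 TPM in DMSO and 5.14 to 7.26 TPM in Chelator, which overlap. RUNX1-213, which retains an intron, held 0.391 to 0.692 TPM and 2.25 to 2.77 TPM.

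**Figure D3:**
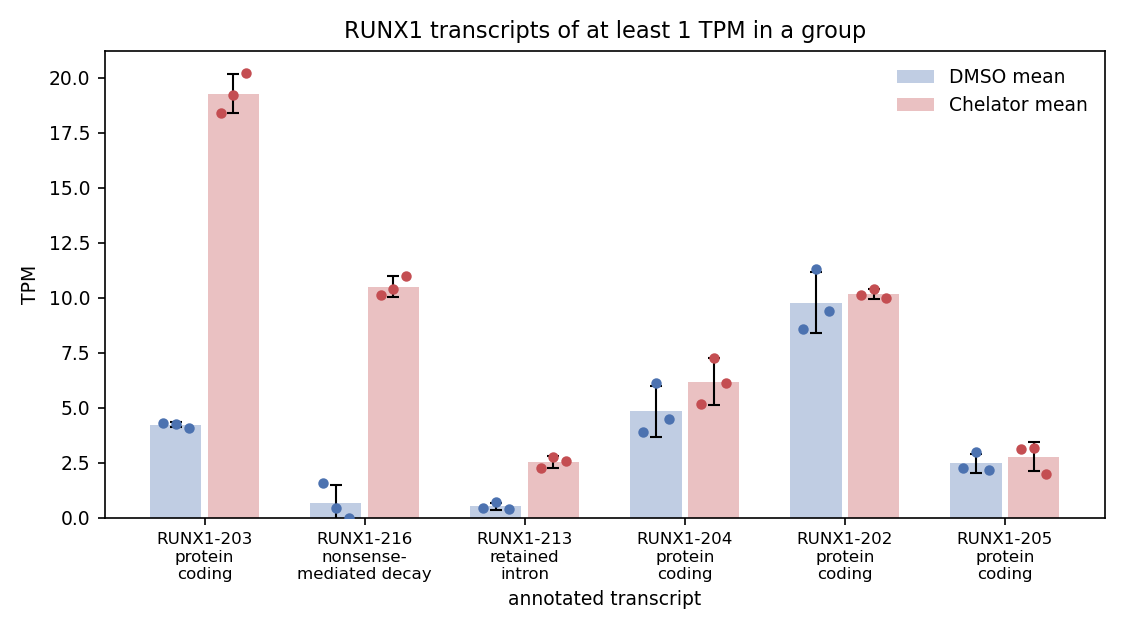
TPM of the RUNX1 transcripts with a mean of at least 1 TPM in a group, with bars for the mean, error bars for the SD and points for the 3 libraries of each group. RUNX1-203 and RUNX1-216 stood far higher in all Chelator libraries, while RUNX1-202, RUNX1-204 and RUNX1-205 overlapped between the groups.

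Summed by end, the 2 transcripts with the short form's last exon, of which the non-coding RUNX1-215 was at or near 0, went from 4.22 ± 0.110 to 19.3 ± 0.826 TPM (4.58-fold), while the 6 with the full-length last exon went from 13.5 ± 1.90 to 24.2 ± 0.546 TPM (1.79-fold). The latter include RUNX1-216, and the 5 protein-coding ones among them went from 12.9 ± 2.06 to 13.7 ± 0.991 TPM (1.07-fold). Summed by start, the 11 transcripts from the distal region went from 2.31 ± 0.987 to 12.1 ± 0.351 TPM (5.27-fold) and the 4 from the proximal start from 21.3 ± 2.99 to 38.4 ± 1.63 TPM (1.80-fold). Within the distal class RUNX1-216 alone went from 0.675 ± 0.814 to 10.5 ± 0.497 TPM. These levels rest on salmon's division of shared reads: RUNX1-203 and RUNX1-216 each have 28 of their 31-base words to themselves and RUNX1-202 has none. Fragment length also differed between the groups, as given above.

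ETS1 (chr11:128458761-128587558, minus strand), the founding member of the ETS family of factors, had estimated counts of 74, 53 and 57 in DMSO and 183, 133 and 149 in Chelator. In counts the groups did not overlap. Normalized for length, however, they did, at 94.2, 192 and 42.1 in DMSO and 134, 71.7 and 111 in Chelator, and no difference was detected (log2 fold change 0.01, SE 0.45, DESeq2 adjusted p = 0.991). The scales parted where a short transcript was read. ETS1-205, a non-coding fragment of 628 bases, was assigned 9, 26 and 1 counts in DMSO, and with 26 of 53 counts on so short a transcript the average effective length in DMSO replicate 2 was 679 bases against 3771 in DMSO replicate 3. The main coding transcript ETS1-201 (441 codons) had 65, 27 and 56 counts in DMSO and 118, 130 and 143 in Chelator. With protein-coding transcripts alone ETS1 was called higher (log2 fold change 1.48, SE 0.39, DESeq2 adjusted p = 3.86e-04), and it was called higher without the length offset (1.12, SE 0.28, adjusted p = 2.66e-04). Without DMSO replicate 2 the value was 0.65 (adjusted p = 0.256), and without Chelator replicate 1 it was -0.21 (adjusted p = 0.836). Of the words of ETS1-205, 39.3% occur in other genes.

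FLI1 (chr11:128686535-128813267, plus strand), the ETS factor most closely tied to late megakaryocyte genes, was at 0 in the DMSO group, had 1, 1 and 0 counts in Chelator, and was not tested. Both reads were assigned to transcripts annotated for nonsense-mediated decay. Of the 3 transcription factors, therefore, RUNX1 was read at 21.8 to 55.3 TPM, ETS1 at 0.219 to 1.17 TPM, and FLI1 was not detectable at this depth.

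The order of the 9 genes by mean TPM in DMSO was RUNX1 (24.4), ITGA2B (3.67), ETS1 (0.622), ITGB3 (0.455), GP9 (0.0156) and VWF (0.0130), with FLI1, PF4 and SELP listed at 0. ETS1 and ITGB3, whose ranges over the DMSO libraries were 0.219 to 1.17 and 0.429 to 0.481 TPM, did not differ beyond their spread. In Chelator, ITGB3 (1.80) stood above ETS1 (0.584), and RUNX1 (53.3) and ITGA2B (5.89) kept the first places. For scale, 10790 protein-coding genes had a mean above 1 TPM in DMSO and 11140 in Chelator.

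Promoter sequence was available for 4 of the 9 genes in the RefSeq-based table (GRCh38.p14): ITGA2B, GP9, SELP and RUNX1, the last at its proximal start. The 250 bases before the start were searched on both strands for the letters GGAA, the core bound by ETS factors such as FLI1 and ETS1, for GATAA or TGATA, cores bound by GATA factors, and for TGTGGT or TGCGGT, cores bound by RUNX1. The upstream sequences of ITGA2B, which was higher in Chelator, and of GP9, which stayed near 0, are shown to compare the 2 receptor genes, with the GGAA and GATA matches in capitals (TTCC and TTATC or TATCA on the other strand).
ITGA2B, chr17:44389650-44389899, minus strand: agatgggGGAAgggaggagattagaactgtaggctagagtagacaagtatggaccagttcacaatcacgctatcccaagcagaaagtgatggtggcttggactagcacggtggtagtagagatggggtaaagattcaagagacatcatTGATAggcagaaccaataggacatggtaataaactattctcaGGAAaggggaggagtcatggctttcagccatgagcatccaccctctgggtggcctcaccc
GP9, chr3:129060529-129060778, plus strand: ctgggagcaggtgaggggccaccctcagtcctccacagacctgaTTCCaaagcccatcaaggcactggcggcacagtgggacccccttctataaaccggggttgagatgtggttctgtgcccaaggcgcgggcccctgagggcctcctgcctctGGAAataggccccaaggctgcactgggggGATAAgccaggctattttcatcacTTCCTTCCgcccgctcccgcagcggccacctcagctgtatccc

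GGAA matched 2 times upstream of ITGA2B, 4 times upstream of GP9 and 6 times each upstream of SELP and RUNX1. Of all 35116 promoters, 92.7% hold it, with a median of 3 matches. GATAA or TGATA matched at 1 site upstream of each of the 4 genes, the one of SELP holding both patterns in overlap, against 29.0% of all promoters with a match. TGTGGT or TGCGGT matched once upstream of GP9 and once upstream of SELP, against 16.3% of all promoters, and did not match upstream of ITGA2B or of RUNX1 itself. ACGTG, the core of the hypoxia response element, matched once upstream of RUNX1 and in 18.5% of all promoters. TGANTCA, the AP-1 site, is held by 6.57% of promoters and matched in none of the 4. Genes whose promoters hold the same letters were thus found both among those higher in Chelator and among those near 0.

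Genes next to the 9 were examined within 200 kb of each gene body, since position was not used to choose them. Of 78 tested neighbors 8 were called (10.3%). These 78 passed the filter on counts and include ETS1, a neighbor of FLI1, and some genes without an adjusted p. Their share is near that among all genes with an adjusted p (10.3%). The calls named here are therefore values of single genes and no result about these neighborhoods. SLC4A1, the anion exchanger of red cells (band 3), lies 104039 bases from ITGA2B. It had 410, 384 and 363 estimated counts in DMSO and 1628, 1773 and 1596 in Chelator, and was called (log2 fold change 2.16, SE 0.37, DESeq2 adjusted p = 3.86e-08). It was 1 of 19 tested neighbors of ITGA2B, and none of the others was called.

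PF4 sits in the CXC chemokine cluster of chromosome 4. Its neighbors CXCL3 (69, 35 and 92 counts in DMSO against 298, 408 and 354 in Chelator, log2 fold change 2.20, SE 0.31, DESeq2 adjusted p = 1.65e-11) and CXCL2 (25, 20 and 23 against 111, 133 and 136, log2 fold change 2.16, SE 0.36, adjusted p = 2.13e-08), both neutrophil attractants, were called higher. The platelet chemokine PPBP, 4412 bases from PF4, had 0 counts over the DMSO libraries and 10 over the Chelator libraries and did not pass the filter. The called chemokines of the cluster were therefore not its platelet members.

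CD9, a tetraspanin abundant on platelets, lies 74945 bases from VWF and had 20, 16 and 10 counts in DMSO and 77, 100 and 82 in Chelator (log2 fold change 2.58, SE 0.44, DESeq2 adjusted p = 4.10e-08). DOP1B was called higher near RUNX1 (1.24, SE 0.21, adjusted p = 1.55e-08), 1 of 13 tested neighbors there beside the non-coding ENSG00000289001. The latter had 15, 0 and 5 counts in DMSO and 0 in all Chelator libraries, so the groups overlapped. It was called by DESeq2 (adjusted p = 0.0399) but not by edgeR (0.0580), nor without DMSO replicate 3 or any 1 of the Chelator libraries (0.0887 to 0.144), and it had no adjusted p without DMSO replicate 1 or with a replicate block. The pseudogene LRRC37A17P near ITGB3 was called lower (-2.16, SE 0.88, adjusted p = 0.0410, but 0.159 to 0.281 without DMSO replicate 1 or 2 or Chelator replicate 2 or 3, and 0.135 with a replicate block). The non-coding ENSG00000273174 near GP9 had 0, 0 and 1 counts in DMSO and 15, 20 and 9 in Chelator, so it passed the filter only through Chelator and its call as higher is a description. SELP had 6 tested neighbors and FLI1 had 3, too few to read the lack of a call against the share of all genes, and none of ETS1's 9 neighbors was tested.

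The rest of the megakaryocyte and platelet program was described with 5 further gene lists, by counts of called genes and medians beside those of all genes tested, whose median log2 fold change was 0.024. Of 28 platelet granule proteins 20 were tested, and 9 were called, all higher (7.81% of all genes were), with a median of 0.96. The count includes FGG, a fibrinogen chain at 0 in every DMSO library, which passed the filter only through Chelator and was named after its values were seen. The median was 0.58 without Chelator replicate 2 and 0.61 with no filter on low counts, and 9 were called in both. PDGFB, a growth factor chain (log2 fold change 5.53, SE 0.13), the protease inhibitor TIMP1 (3.21, SE 0.08) and the adhesive protein THBS1 (3.09, SE 0.51, DESeq2 adjusted p = 1.68e-08) were among them. Many cell types besides megakaryocytes make these proteins. Of the list, 9 genes had under 10 counts in every library, and PF4V1, F13A1 and VEGFC were at 0.

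Of 26 platelet surface receptors 21 were tested, and 4 were called, all higher (7.81% of all genes were), with a median of 0.37. These were CD9, the adhesion receptor CD226 (log2 fold change 2.25, SE 0.22), the junction protein ESAM (1.91, SE 0.36) and the fibronectin receptor chain ITGA5 (1.35, SE 0.08). At the adjusted p alone 9 receptors were higher and 4 lower, against 18.5% and 17.4% of all genes. With centring 4 were called higher and 1 lower. CD226 was 0.64 without the length offset and then not called. The most abundant receptors without a call were ITGB1 (0.17, SE 0.07), CD63 (0.11, SE 0.07) and F11R (0.28, SE 0.06), of which ITGB1 and CD63 turned to -0.04 and -0.11 with the changes centred on their mean.

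Among 30 other transcription factors of the lineage, 29 were tested, 2 were called higher and 2 lower (7.81% and 2.46% of all genes were), and the median was -0.19. At the adjusted p alone 4 were higher and 14 lower, against 18.5% and 17.4% of all genes. SPI1 (PU.1), a factor of myeloid cells, rose (log2 fold change 1.48, SE 0.12, DESeq2 adjusted p = 5.18e-31), and ERG, an ETS factor close to FLI1, went from 0 in every DMSO library to 14, 27 and 8 counts, at least 5.22-fold higher against a floor of 3 counts per library. ERG was named after its values were seen and passed the filter only through Chelator, so its call is given as a description, and with at least 10 counts in 3 libraries required 1 factor was called higher. IKZF1 fell by 1.48 (SE 0.07, adjusted p = 8.22e-92) and MECOM, which is active in stem cells and early megakaryocytes, fell by 1.30 on the log2 scale (SE 0.09, adjusted p = 3.76e-47). The GATA factors, GATA1 and GATA2, had values of -0.13 each (SE 0.07) and did not pass the test. With centring both were at -0.34 (adjusted p = 0.00162 and 0.00152), and with GC and length trends removed at -0.33 and -0.28 (1.21e-09 and 1.29e-06), past the adjusted p and short of the fold size. The cofactor LDB1 was lower by the adjusted p (-0.60, SE 0.07, adjusted p = 2.18e-17) without reaching the fold size.

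All 30 genes of proplatelet cytoskeleton and granule formation were tested, and 5 were called, all higher (7.81% of all genes were), with a median of 0.29. MYL9, the myosin light chain of contractile cells (log2 fold change 2.47, SE 0.20), the actin regulator CORO1A (2.04, SE 0.19), the tropomyosin TPM4 (1.61, SE 0.08) and the adhesion protein ZYX (1.52, SE 0.07) led them. FLNA, DIAPH1 and TLN1, the most abundant without a call, were at 0.48, -0.12 and 0.12, and TLN1 turned to -0.01 without the length offset and to -0.08 with centring. Of 26 genes of thrombopoietin receptor and integrin signaling, 25 were tested and 2 called higher, a share near the 7.81% of all genes: SOCS1, a feedback inhibitor of cytokine signaling (2.16, SE 0.10), and RASGRP2, which activates the small GTPase that switches on platelet integrins (1.06, SE 0.12, and 0.85 without a call after centring). STAT5A, which carries the thrombopoietin signal, was at -0.91 (SE 0.06) and was called with centring (-1.12), and the list's median was 0.05.

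**Figure D4:**
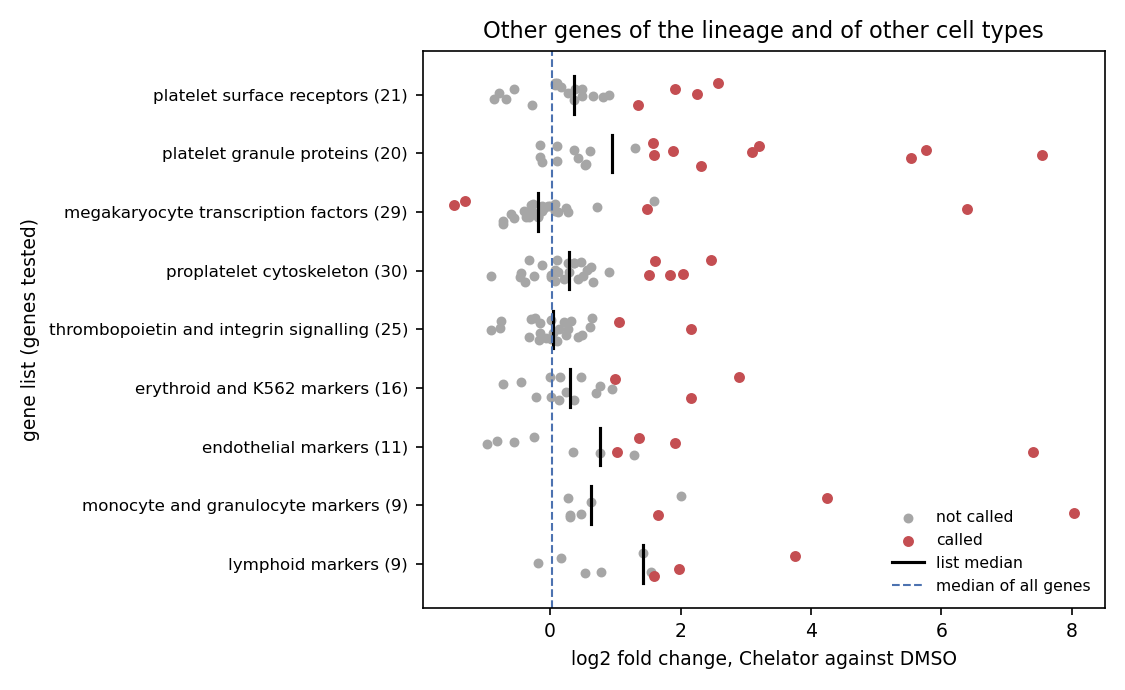
Log2 fold change of Chelator against DMSO for each tested gene of 5 megakaryocyte and platelet lists and of 4 lists for other cell types, with called genes in red, list medians as black lines and the median of all genes (0.024) as a dashed line. As plotted, called genes lay on the higher side in every list, and on the lower side only among the transcription factors.

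Markers of other cells moved too, and are given because VWF, ESAM and others are shared with them. Of all genes, 7.81% were called higher and 2.46% lower, and 18.5% and 17.4% passed the adjusted p alone in those directions. Of 16 endothelial markers 11 were tested and 4 called higher, led by FLT1, a receptor for vascular growth factor (20, 5 and 10 counts in DMSO against 3242, 2385 and 2001 in Chelator, log2 fold change 7.40, SE 0.56), while CDH5, EMCN and SOX17 were at 0 in all libraries and 3 were lower by the adjusted p, among them NOS3, the endothelial nitric oxide synthase (-0.56, SE 0.08), and PECAM1 (-0.81, SE 0.18). SOX18, also abundant, was at -0.25 (SE 0.11, DESeq2 adjusted p = 0.0517). Their summed level was 182 to 196 TPM in DMSO and 229 to 242 TPM in Chelator. Of 12 monocyte and granulocyte markers 9 were tested and 3 called higher, MPO (0, 1 and 1 counts against 178, 242 and 158), CSF3R and ITGAM, of which MPO passed the filter only through Chelator, while ELANE and S100A8 were at 0, with sums of 49.3 to 56.1 and 70.2 to 75.4 TPM. Of 12 lymphoid markers 9 were tested and 3 called higher, CD3D, CD3E and PAX5 (the last 2 named after their values were seen, and PAX5 tested only through Chelator), with CD8A and MS4A1 at 0 and sums of 12.6 to 18.7 and 43.8 to 46.2 TPM. Of the 16 erythroid markers 3 were called, all higher: TFRC, the transferrin receptor (2.89, SE 0.10), SLC4A1 and ALAS2, the first enzyme of heme synthesis in red cells (1.00, SE 0.09, just past the threshold, and 0.94 to 0.99 without DMSO replicate 1 or 3 or Chelator replicate 1). At the adjusted p alone 9 of the 16 erythroid markers were higher and 3 lower. ITGAM lost its call without Chelator replicate 2 (1.23), and PECAM1 was called lower without Chelator replicate 1 (-1.10). EGFL7, an endothelial secreted protein called higher (1.02, SE 0.08), was at 0.95 without DMSO replicate 2 and at 0.98 without Chelator replicate 3, below the threshold. With centring ALAS2 and EGFL7 were both at 0.80 and were not called, and PECAM1 (-1.02) was called. EGFL7 was at 0.67 with GC and length trends removed and at 0.94 with protein-coding transcripts alone, where CSF3R also lost its call (adjusted p = 0.122). The medians were 1.42 for the lymphoid, 0.76 for the endothelial, 0.63 for the monocyte and granulocyte and 0.30 for the erythroid markers, beside 0.96 and 0.37 for the platelet granule proteins and surface receptors. Their order was not firm. With 1 library left out, the endothelial median was 0.31 to 0.94 and the monocyte and granulocyte median 0.57 to 1.37. The lymphoid median was then 0.99 to 1.57 and the erythroid median 0.25 to 0.38. With centring the lymphoid, endothelial, monocyte and granulocyte, and erythroid medians were 1.22, 0.53, 0.42 and 0.09. The erythroid sum was 17534 to 19074 TPM in DMSO and 24948 to 26389 TPM in Chelator. The part of such markers in the results for the 9 genes was not tested. In bulk RNA, more cells with a gene on and more RNA per cell cannot be told apart.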

How the data were processed

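The authors quantified paired-end reads with salmon 1.10.2 (build hg38 per the labels) and deposited 1 table per library, with an estimated count and a TPM for each of 252045 transcripts; TPM are the authors' estimated counts per effective length, scaled to an equal sum in every library. The labels give libraries their group and replicate. The transcript annotation is not given in the sources used here. Transcripts were matched to GENCODE release 44, and 433 without a match (0.139 to 0.150% of counts) were left out. Gene sums were rounded. DESeq2 1.42.0 was run with a length offset, a total above 10 and the study's thresholds (adjusted p under 0.05, log2 fold change beyond 1 either way). Transcript usage used edgeR 4.0.16 (at least 10 counts in 3 libraries) and limma 3.58.1, in R 4.3.3. Scripts were tested on simulated data. Whether equal replicate numbers pair the samples could not be settled, and the main fits did not pair them. The deviations of same-numbered libraries correlated by 0.01, 0.13 and 0.10, those of differently numbered libraries by -0.12 to 0.04, without a test. Alternatives were TMM factors, other filters, no offset, centring, removal of GC and length trends, coding transcripts alone, a replicate block and each library left out.

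The 9 genes, the gene lists and the tests were chosen with earlier results of these data known. Genes named are the 9; of each list, up to 4 called genes that moved furthest, given 50 or more normalized counts on average, and up to 3 uncalled genes with the highest level; and every called neighbor within 200 kb. Of the transcripts, those with at least 20% of a gene's TPM in a group were to be named, and others were added after their values were seen. Not every gene this rule takes is described, and 1 of them is not reported here. Counts of 0 and their floors cover counting error only.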

Additional observations from a re-analysis of the deposited data

How the results depend on the processing

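The 2 genes ITGB3 and RUNX1 were called for expression, and this number was 1 (ITGB3) with the changes centred on their mean and 1 (ITGB3) when tested against a log2 fold of 1, where 671 of all genes were called. It was 3 without the length offset and with protein-coding transcripts alone, where ETS1 and VWF were called and RUNX1 was not. VWF passed the filter only through Chelator, so its part in that number is a description. Centring moved the median of all genes from 0.024 to -0.187 and the share of called genes that were higher from 76.1% to 55.6%, and ETS1 then had -0.17. ETS1 also changed sign when a library was left out (-0.40 to 0.65), where the genes called stayed at 2. Genes of the 9 called for transcript usage ranged from 0 to 1 when a library was left out, and limma called 3192 genes against 1105 with edgeR.

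Of the other genes named, ITGB1 (-0.04), CD63 (-0.11), STXBP5 (-0.10), SRGN (-0.11) and TLN1 (-0.08) changed sign with centring, and STXBP5 (-0.01) and TLN1 (-0.01) without the offset. Tested against a log2 fold of 1, the called genes went from 4 to 1 among the endothelial, from 3 to 1 among the erythroid, from 3 to 0 among the lymphoid markers and from 2 to 1 in the thrombopoietin and integrin list, which also had 1 with protein-coding transcripts alone. That list had 1 called higher and 1 lower with centring and with GC and length trends removed. The total called in each of the lists was within 1.5 times its value in the other alternatives run. With centring the medians were 0.15 for surface receptors, 0.73 for granule proteins, -0.40 for transcription factors, 0.07 for the cytoskeleton and -0.16 for the thrombopoietin list. With a replicate block, 2 genes (ITGB3, log2 fold change 1.96, and RUNX1, 1.10) were called for expression and 1 for usage, and 2333 genes in all. The replicate numbers share no batch in the labels. GP9 and FLI1 had at most 3 counts in any library.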
